A study of Mus musculus with 9 samples.

Results

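The 10 CC chemokine genes Ccl2, Ccl3, Ccl4, Ccl5, Ccl6, Ccl7, Ccl8, Ccl9, Ccl12 and Ccl24 were taken by symbol from a table of 14905 genes measured by RNA sequencing in macrophages of mouse visceral fat. The cells carried F4/80 and CD11b, surface proteins of macrophages, in a fluorescence-activated sort. Mice of C57BL/6 background gave 5 libraries of the genotype Nucb2-/- (KO) and 4 wild-type libraries (WT). Nucb2 encodes nucleobindin-2, the source of the peptide nesfatin-1, and the series title speaks of insulin sensitivity in obesity. The sample labels give no age, sex, diet or pooling of mice, and name no Cre or promoter, so the loss is not described as limited to macrophages. The labels number the libraries and do not tie each to its own mouse, so the p-values measure a spread that may be partly technical.

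CC chemokines are small secreted proteins with adjacent cysteines near the start of the mature chain. They bind G protein-coupled receptors of the Ccr family on leukocytes and draw these cells along a gradient. In obese fat they are best known for bringing in blood monocytes through Ccl2 and its receptor Ccr2. Macrophages both make them and respond to them.

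The values are normalized read counts, that is reads per gene divided by 1 factor per library. Depth, recovered from the step between neighbouring low values, was 74937712 to 85200100 reads in 6 libraries and 51148956 to 55004978 in KO replicate 5 and WT replicates 3 and 4, called deeper and shallower here. Nucb2 was at 1165 to 1752 normalized counts in KO libraries and at 3311 to 5233 in WT libraries, so its transcript was reduced and still detected. The sort antigens were present in each library, with Adgre1, which encodes F4/80, at 85568 to 100567 in KO and 98976 to 118970 in WT, and Itgam, which encodes CD11b, at 20644 to 25401 in KO and 19952 to 22252 in WT. Each of the 10 members was above the floor of the table, a normalized count of 1, in each of the 9 libraries, and all 10 had a mean of at least 10. In the GENCODE M21 annotation of GRCm38 (mm10), 9 of the 10 members lie on chromosome 11 in a pair of clusters 1409 kb apart, and Ccl24 lies on chromosome 5 from 135569937 to 135573049 on the minus strand.

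Together the 10 genes took 0.748% ± 0.0379 of all normalized counts in KO (SD, n = 5) and 0.730% ± 0.0147 in WT (SD, n = 4). Ccl6 and Ccl9 supplied 69.1% to 78.1% of the members' counts in a library. To compare levels between genes, counts were divided by the length of the merged exons. On that scale Ccl6 was highest in each of the 9 libraries and Ccl24 lowest in each, with medians over libraries of 143038 and 2078 normalized counts per kb, a ratio of 68.9.

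Between these ends the levels formed steps. Ccl2 (41336 normalized counts per kb), Ccl9 (40196), Ccl7 (34903.5) and Ccl4 (33362) were close together. Within this group neighbours changed places between libraries: Ccl2 was above Ccl9 in 5 of 9 libraries, Ccl9 above Ccl7 in 7, and Ccl7 above Ccl4 in 5. Ccl8 followed at 16827 per kb, above the next gene, Ccl3 (10869), in 8 of 9 libraries. Ccl3 was above Ccl12 (8419) in 7, and Ccl12 above Ccl5 (3806) in 7. Ccl5 was above Ccl24 in 9 of 9. The order was least settled for Ccl8, which ranked between 2 and 7, and for Ccl2, which ranked between 2 and 6. Ccl8 ranked 6 or 7 in the KO libraries and in WT replicates 1 and 2, and 2 and 3 in WT replicates 3 and 4.

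**Figure D1:**
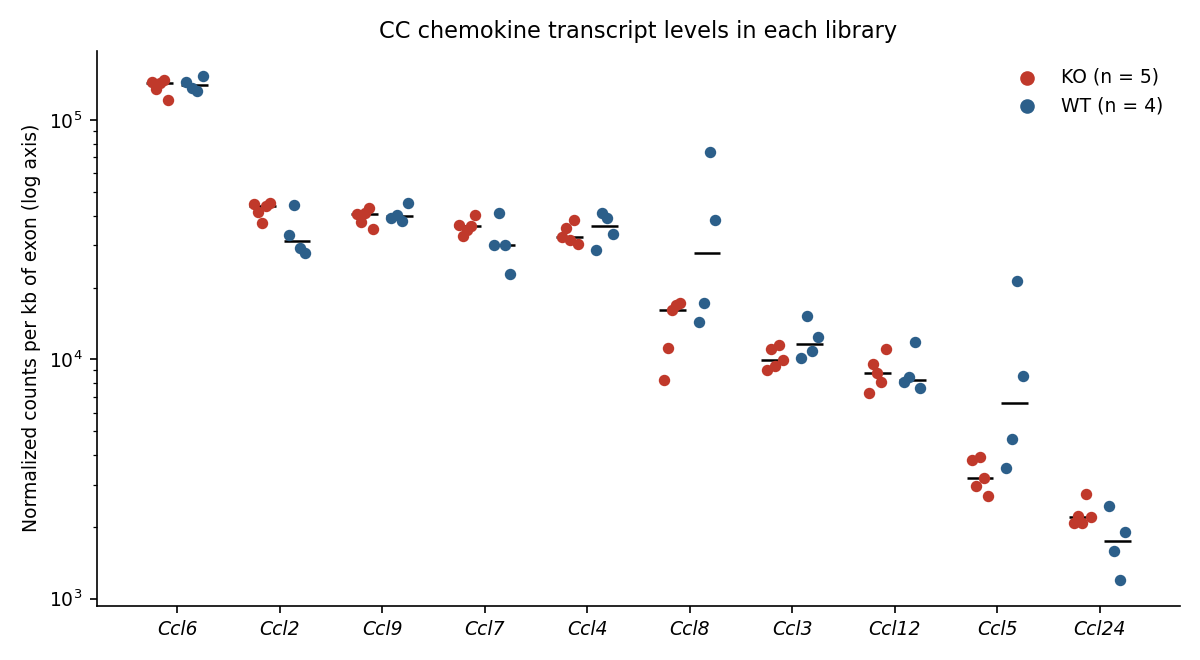
Normalized counts per kb of merged exons (log axis) of the 10 CC chemokine genes, ordered by their median over 9 libraries; points are libraries, KO (n = 5) left of WT (n = 4), and black lines are group medians. Ccl6 stands above the other genes in each library, and the WT points of Ccl8 and Ccl5 spread far more than their KO points.

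The comparison of KO with WT asks whether macrophages of Nucb2-/- mice carry different amounts of these transcripts. Of the 10 members, 0 passed an adjusted p of 0.05 in limma on log2(normalized count + 1), adjusted over 14905 genes, where 46 genes or 0.309% of the table passed. Adjusted p of the members lay between 0.254 and 0.9999. At an unadjusted p of 0.05 it was 3 members, Ccl2, Ccl5 and Ccl8, against 9.14% of all genes. KO and WT ranges overlapped in each of the 10, while 3.15% of all genes had ranges that did not. The members' median log2 difference was -0.04, and that of all genes 0.02; 3 members lay above 0 and 7 below. A p above the threshold does not show equal levels, so the 95% interval of each difference is given below.

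**Figure D2:**
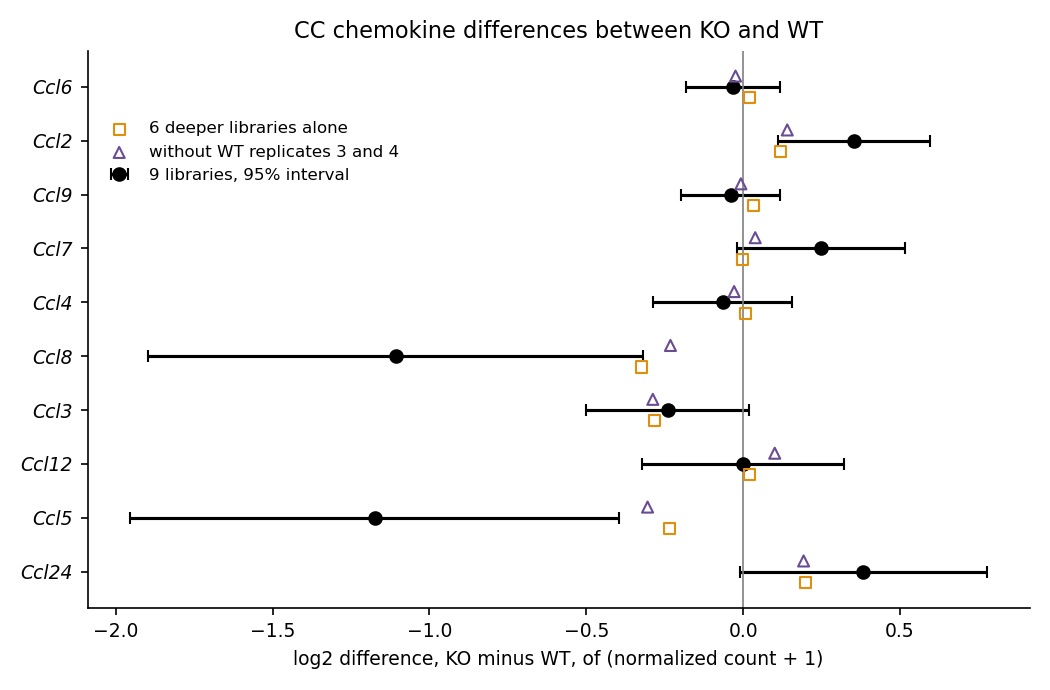
log2 difference of (normalized count + 1), KO minus WT, for each CC chemokine gene, in the order of their levels; black points with bars are limma estimates with 95% intervals over 9 libraries, squares the 6 deeper libraries alone, triangles the fit without WT replicates 3 and 4. The black points of Ccl5 (-1.17) and Ccl8 (-1.11) lie far to the left, and the squares and triangles of these genes lie between -0.32 and -0.23.

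Ccl5 and Ccl8 had the largest estimated differences, both with lower means in KO, and both rested largely on WT replicates 3 and 4. Ccl5, also known as RANTES, draws T cells, monocytes and eosinophils and is made by several kinds of leukocyte. It had 3653, 2842, 3753, 3057 and 2579 normalized counts in KO replicates 1 to 5, against 3377, 4467, 20505 and 8216 in WT replicates 1 to 4. KO libraries were alike, and KO replicates 2, 4 and 5 were below every WT library. WT replicate 1 lay within the KO range, WT replicate 2 somewhat above it, and WT replicates 3 and 4 far above. The means were 3177 ± 511 in KO (SD, n = 5) and 9141 ± 7854 in WT (SD, n = 4). The log2 difference was -1.17 (SE 0.37, 95% interval -1.95 to -0.40; adjusted p by limma = 0.254). A two-sided exact permutation test over the libraries, unadjusted and run once for each of the 10 members, gave p = 0.0476 (the smallest this design allows is 0.0159). The gene lies on the minus strand of chromosome 11 from 83525778 to 83530518.

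Ccl8 encodes a monocyte chemoattractant that in the mouse acts through Ccr8. It had 4209, 5692, 8251, 8599 and 8844 normalized counts in KO replicates 1 to 5, against 7332, 8815, 37515 and 19562 in WT replicates 1 to 4. Again WT replicate 3 was highest and WT replicate 4 next, while WT replicates 1 and 2 fell within the upper part of the KO range. KO replicates 1 and 2 were below every WT library. The means were 7119 ± 2059 in KO (SD, n = 5) and 18306 ± 13917 in WT (SD, n = 4), with a log2 difference of -1.11 (SE 0.37, 95% interval -1.90 to -0.32; adjusted p by limma = 0.298) and an exact two-sided permutation p of 0.127. Without WT replicates 3 and 4, a choice made after the values were seen, the log2 difference was -0.30 for Ccl5 and -0.23 for Ccl8 (adjusted p by limma = 0.732 and 0.869). Leaving out WT replicate 3 alone gave -0.66 for each.

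WT replicates 3 and 4 were also the shallower WT libraries, and the only shallower KO library was replicate 5. Within the 6 deeper libraries the log2 difference was -0.23 for Ccl5 and -0.32 for Ccl8, and within the 3 shallower ones, where KO has 1 library and no test was made, -2.33 and -1.61. KO replicate 5, of the same depth class, had the lowest Ccl5 and the highest Ccl8 of the KO libraries. T and NK cells are a known source of Ccl5. Of 15 of their marker genes 13 were in the table, with a summed level of 960 to 2141 normalized counts in KO and 1185 to 2210 in WT. Their median log2 difference was -0.91, with 8 of 13 below 0 and 0 past the test. In WT replicate 3 the sum was 2111 and in WT replicate 4 it was 1185, the lowest WT value. Their part in the values of Ccl5 was not tested. In sorted bulk cells, fewer cells that make a transcript and less transcript per cell cannot be told apart.

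The members were compared by the SD, over the 9 libraries, of the log2 ratio between genes, which is small where genes keep their ratio from library to library. Among 7291 genes with a mean at or above the median of the table and no predicted name, the gene most like Ccl5 was Gbp2, an interferon-induced guanylate-binding protein (SD of the log2 ratio 0.22, where the median gene gave 0.98). Gbp2 had 5815 to 8907 normalized counts in KO, and 7420, 8265, 41932 and 19518 in WT replicates 1 to 4. The gene most like Ccl8 that is no member was Vcam1, an adhesion protein that binds leukocytes (SD 0.39). Vcam1 had 12837 to 18634 normalized counts in KO and 22005, 22423, 65826 and 59364 in WT replicates 1 to 4. Its log2 difference was -1.23 (adjusted p by limma = 0.0825). The adjusted p by limma was under 0.05 with array weights or depth class as a term. It was between 0.0895 and 0.452 in the 9 fits that left out a library. Ccl5 and Ccl8 were each other's closest member (SD 0.44), at places 8 and 20 of the 7291 genes seen from Ccl8 and from Ccl5. All 4 genes had their highest value in WT replicate 3 and the next in WT replicate 4. This measure is a description over libraries that share genotype and depth class, and says nothing of shared control.

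**Figure D3:**
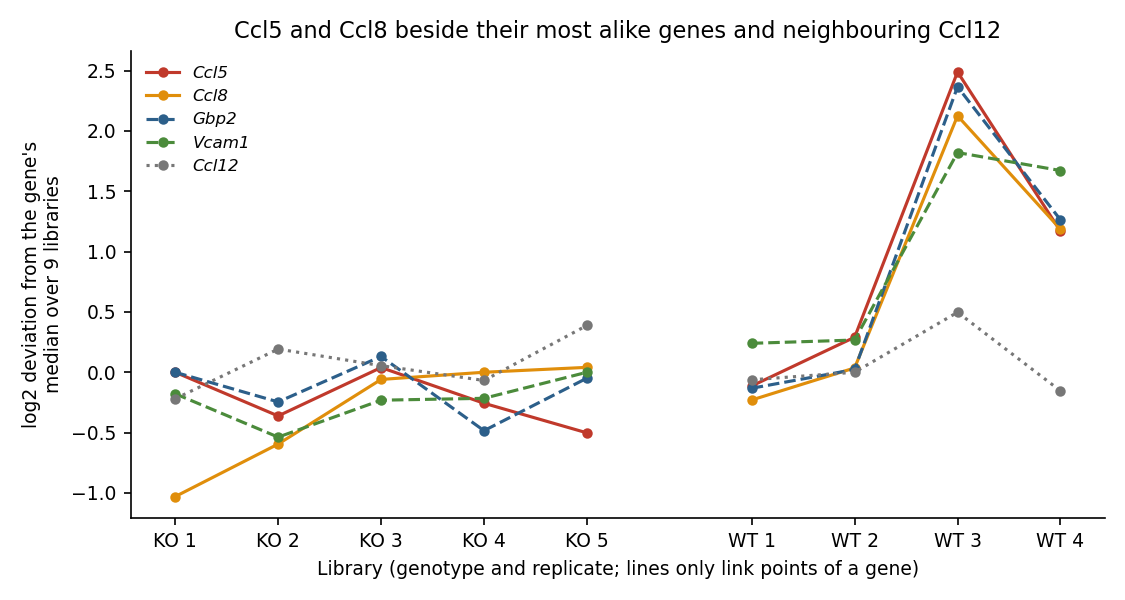
log2 deviation of (normalized count + 1) from each gene's median over 9 libraries, by library, KO left of WT, for Ccl5, Ccl8, their most alike genes Gbp2 and Vcam1, and Ccl12, the chromosomal neighbour of Ccl8. Ccl5, Ccl8, Gbp2 and Vcam1 are highest in WT replicates 3 and 4, with Ccl5 at 20505 and Ccl8 at 37515 normalized counts in WT replicate 3. Ccl12 is also highest in WT replicate 3, but stays within 3882 to 6381 in the 9 libraries.

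Some other genes also had their highest values in WT replicates 3 and 4. How many of the listed regulators of chemokine genes did so was not counted. Of those named below, Tlr4 did, while Zfp36 and Il1r1 were higher in each KO library than in each WT library. Irf1, an interferon-induced activator named here after its values were seen, had 32974 to 43010 in KO, and 39118, 36721, 67724 and 52656 in WT. Cxcl9, a chemokine induced by interferon gamma and likewise named after its values were seen, had 1850 to 3509 in KO, and 3092, 3013, 27132 and 12352 in WT. Tlr4, a listed regulator and the receptor for bacterial lipopolysaccharide, had 4845 to 6309 in KO and 5763, 6138, 9082 and 7411 in WT. Of the 26 listed regulators 0 passed, 16 lay above 0 and 10 below, and their median log2 difference was 0.06. Zfp36, which destabilizes cytokine mRNA, averaged 141360 ± 16427 in KO and 115555 ± 5715 in WT (SD over 5 and 4 libraries; adjusted p by limma = 0.196), and the interleukin-1 receptor gene Il1r1 2351 ± 142 in KO and 1907 ± 132 in WT (adjusted p by limma = 0.519).

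The monocyte attractants Ccl2 and Ccl7, both ligands of Ccr2, moved together between libraries. Ccl2 occupies 82035571 to 82037453 of chromosome 11, plus strand, and Ccl7 starts 8.26 kb further on, from 82045712 to 82047525. Ccl2 had 50722, 47041, 42367, 50091 and 51292 normalized counts in KO replicates 1 to 5, against 37900, 50417, 33214 and 31802 in WT replicates 1 to 4. WT replicate 2 lay among the KO libraries, and the other 3 WT libraries were below each KO library. The means were 48303 ± 3702 in KO (SD, n = 5) and 38333 ± 8467 in WT (SD, n = 4), a fold of 1.28 with a 95% interval of 1.08 to 1.51 (log2 difference 0.35, SE 0.11; adjusted p by limma = 0.273), and the exact two-sided permutation p was 0.0635.

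Ccl7 had 29310, 26333, 27958, 29043 and 32253 normalized counts in KO replicates 1 to 5, against 24106, 32886, 24180.5 and 18277 in WT replicates 1 to 4. Here too WT replicate 2 was high, above each KO library, and the other 3 WT libraries were below each KO library. The log2 difference was 0.25 (SE 0.13, 95% interval -0.02 to 0.52; adjusted p by limma = 0.583), with 0.11 when WT replicate 4 was left out and 0.39 when WT replicate 2 was. Within the 6 deeper libraries the differences were smaller, 0.12 for Ccl2 and -0.001 for Ccl7, and within the 3 shallower ones they were 0.66 and 0.62, with no test there. Ccl7 was the gene most like Ccl2 among 7291 genes (SD of the log2 ratio 0.12). From the side of Ccl7, Ccl2 ranked 5, and the nearest gene was Lats2, a kinase of the Hippo pathway (0.07). The non-member most like Ccl2 was S100a6, a calcium-binding protein (0.12).

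Some other lists also reached higher sums in KO, with ranges that overlapped those of WT. The 16 genes induced by tissue dissociation, such as Fos and Jun, were all measured. They summed to 345796 to 456412 normalized counts in KO and 289721 to 367181 in WT. Their median log2 difference was 0.29, with 15 of 16 above 0 and 0 past the test. At an unadjusted limma p under 0.05 it was 10 of the 16, against 9.14% of all genes. Fibroblasts and mesothelial cells also make Ccl2 and Ccl7. Of 9 fibroblast markers 9 were measured and summed to 292217 to 456247 in KO and 205040 to 342826 in WT. Of 10 mesothelial markers 9 were measured, Muc16 not among them, and summed to 6921 to 21431 in KO and 3205 to 9381 in WT. WT replicate 2, with Ccl2 within the KO range and Ccl7 above it, had sums of 301489 for the dissociation genes, 271785 for the fibroblast markers and 3205 for the mesothelial markers, the last the lowest of the 9 libraries. KO replicate 5 had the highest Ccl2 and Ccl7 of the KO libraries. Its sums for these lists were 456412, 456247 and 19889, the dissociation and fibroblast sums being the highest of the 9 libraries. The part of these lists in the values of Ccl2 and Ccl7 was not tested.

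Ccl12, a further Ccr2 ligand of the mouse, lies between Ccl7 and Ccl8 on the plus strand, from 82101845 to 82103400, 11.8 kb before Ccl8. It had 3882, 5165, 4696, 4312 and 5916 normalized counts in KO replicates 1 to 5, against 4329, 4521, 6381 and 4062 in WT replicates 1 to 4. The groups overlapped, with KO replicate 1 lowest and WT replicate 3 highest, and the log2 difference was -0.001 (SE 0.15, 95% interval -0.32 to 0.32; adjusted p by limma = 0.9999). Ccl8 over Ccl12, per kb, was 1.14 to 2.10 in KO and 1.78, 2.05, 6.18 and 5.06 in WT replicates 1 to 4. The nearest member to Ccl12 was Ccl4 (SD of the log2 ratio 0.27, place 1143 of 7291), and the nearest gene was Sar1a, a GTPase of transport from the endoplasmic reticulum (0.11).

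The upstream sequences of Ccl8 and Ccl12 are shown because these neighbours differed in their spread over libraries. Each line gives the 250 bases before the annotated start, 5′ to 3′ on the plus strand, from RefSeq on GRCm38.p6, at chr11:82114935-82115184 for Ccl8 and chr11:82101595-82101844 for Ccl12, with TATAAA, the core of a TATA box, in capitals.
Ccl8: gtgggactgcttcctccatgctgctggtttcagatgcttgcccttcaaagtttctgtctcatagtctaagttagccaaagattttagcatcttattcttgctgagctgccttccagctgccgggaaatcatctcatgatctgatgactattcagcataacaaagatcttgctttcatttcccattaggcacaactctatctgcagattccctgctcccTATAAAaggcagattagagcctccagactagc
Ccl12: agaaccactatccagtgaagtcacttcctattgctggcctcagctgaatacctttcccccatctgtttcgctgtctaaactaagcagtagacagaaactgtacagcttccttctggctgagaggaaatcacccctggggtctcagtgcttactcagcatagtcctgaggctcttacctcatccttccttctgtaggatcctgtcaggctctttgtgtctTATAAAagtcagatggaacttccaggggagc
Both hold TATAAA near the start, its first base 32 bases before it in Ccl8 and 31 in Ccl12. On either strand TATAAA occurs in 12.4% of the 32851 RefSeq windows of this length. The longest exact runs that the pair share have 8 bases; 1 of them, GGAAATCA, begins 128 bases before the start in both. The motif of the interferon response element (2.98% of all windows) and TTCNNNGAA of a GAS element (7.02%), were on neither strand of these windows, which says only that these motifs are not within this stretch.

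Ccl6 and Ccl9 are rodent chemokines with no direct human counterpart, made in quantity by macrophages and other myeloid cells, and both act through Ccr1. They were the most abundant pair by counts and the steadiest members. Ccl6 had 258979, 243649, 256754, 265958 and 219399 normalized counts in KO replicates 1 to 5, against 260871, 244619, 237424 and 275340 in WT replicates 1 to 4. Ccl9 had 123460, 114940, 124588, 131356 and 107483 in KO, against 118993, 122398, 115337 and 137884 in WT. For both genes KO replicate 5 was the lowest library and WT replicate 4 the highest, and the groups overlapped. The log2 difference was -0.03 for Ccl6 (95% interval -0.18 to 0.12; adjusted p by limma = 0.913) and -0.04 for Ccl9 (95% interval -0.20 to 0.12; adjusted p by limma = 0.90). As folds of KO over WT the intervals run from 0.881 to 1.08 and from 0.873 to 1.09.

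Over the 9 libraries the coefficient of variation was 6.72% for Ccl6 and 7.47% for Ccl9. Of the 7453 genes with a mean at or above the median of the table, 4.17% varied less than Ccl6 and 6.20% less than Ccl9, where 99.8% varied less than Ccl5 and 99.7% less than Ccl8. Per kb, Ccl6 stood at 3.43 to 3.60 times Ccl9 in KO libraries and at 3.39 to 3.72 times in WT libraries. Each was the gene most like the other among 7291, with an SD of the log2 ratio of 0.0434; the next was Laptm5, a lysosomal membrane protein of blood cells, for both (0.0445 from Ccl6, 0.0562 from Ccl9). The genes lie 9.25 kb apart on the minus strand of chromosome 11, Ccl9 from 83572919 to 83578636 and Ccl6 from 83587882 to 83593087. Whether reads that align to both were split is not given in the sources used here.

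Their upstream sequences are shown because the pair kept nearly the same ratio in each library. The lines give the 250 bases before the start, 5′ to 3′ on the minus strand, from RefSeq on GRCm38.p6, at chr11:83593088-83593337 for Ccl6 and chr11:83578637-83578886 for Ccl9, with bases that lie in an exact run of 10 or more shared by both in capitals.
Ccl6: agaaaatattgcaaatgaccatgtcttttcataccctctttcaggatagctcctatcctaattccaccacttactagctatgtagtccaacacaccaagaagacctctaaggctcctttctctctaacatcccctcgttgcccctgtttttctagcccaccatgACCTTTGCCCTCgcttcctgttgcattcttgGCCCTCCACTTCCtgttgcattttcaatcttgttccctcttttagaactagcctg
Ccl9: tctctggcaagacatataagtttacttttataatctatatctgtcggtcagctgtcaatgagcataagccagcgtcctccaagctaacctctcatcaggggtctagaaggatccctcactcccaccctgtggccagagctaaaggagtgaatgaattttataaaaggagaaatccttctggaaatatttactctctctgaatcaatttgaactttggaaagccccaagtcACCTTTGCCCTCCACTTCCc
The longest shared run, GCCCTCCACTTCC, has 13 bases and begins 55 bases before the start in Ccl6 and 14 bases before it in Ccl9. Among the 10 pairs of the 5 members in the RefSeq promoter table (Ccl3, Ccl6, Ccl8, Ccl9 and Ccl12), the longest run of the other 9 pairs was 7 to 9 bases. Motifs were searched on both strands. The Ccl9 window held TGANTCA, the AP-1 motif (6.75% of all windows), at 53 bases before the start, and an NF-kB motif (3.90%) at 35. Over both strands TATAAA matched 3 times, not always on the printed strand, the nearest at 92, where matches on opposite strands overlap. The Ccl6 window held none of these.

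Ccl3 and Ccl4 are macrophage inflammatory proteins that draw monocytes, T cells and NK cells. Ccl3 (minus strand, chromosome 11 from 83647844 to 83649355) had 6956, 8509, 7167, 8791 and 7636 normalized counts in KO replicates 1 to 5, against 7750, 11640, 8326 and 9503 in WT replicates 1 to 4. WT replicates 2 and 4 were above each KO library, and the other WT libraries lay within the KO range. The log2 difference was -0.24 (SE 0.12, 95% interval -0.50 to 0.02; adjusted p by limma = 0.583), -0.28 within the 6 deeper libraries and -0.13 without WT replicate 2. Its neighbour Ccl4 (plus strand, 83662584 to 83664683) had 21474, 23515, 20940.5, 25341 and 20061 in KO, against 19026.5, 26927, 25770 and 22019 in WT. Its groups overlapped, with WT libraries both above and below the KO range, and the log2 difference was -0.07 (SE 0.10, 95% interval -0.29 to 0.16; adjusted p by limma = 0.879).

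Per kb, Ccl4 over Ccl3 was 3.32 ± 0.20 in KO (SD, n = 5) and 2.95 ± 0.43 in WT (SD, n = 4), between 3.05 and 3.58 in KO and between 2.69 and 3.59 in WT, so the WT range held the whole KO range. They were each other's closest member (SD of the log2 ratio 0.17), but unlike Ccl6 with Ccl9, many other genes were as close: Ccl4 took place 120 seen from Ccl3 and Ccl3 place 436 seen from Ccl4. The nearest genes were Anp32b, a nuclear histone chaperone, for Ccl3 (0.11) and Larp4b, an RNA-binding protein, for Ccl4 (0.08).

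**Figure D4:**
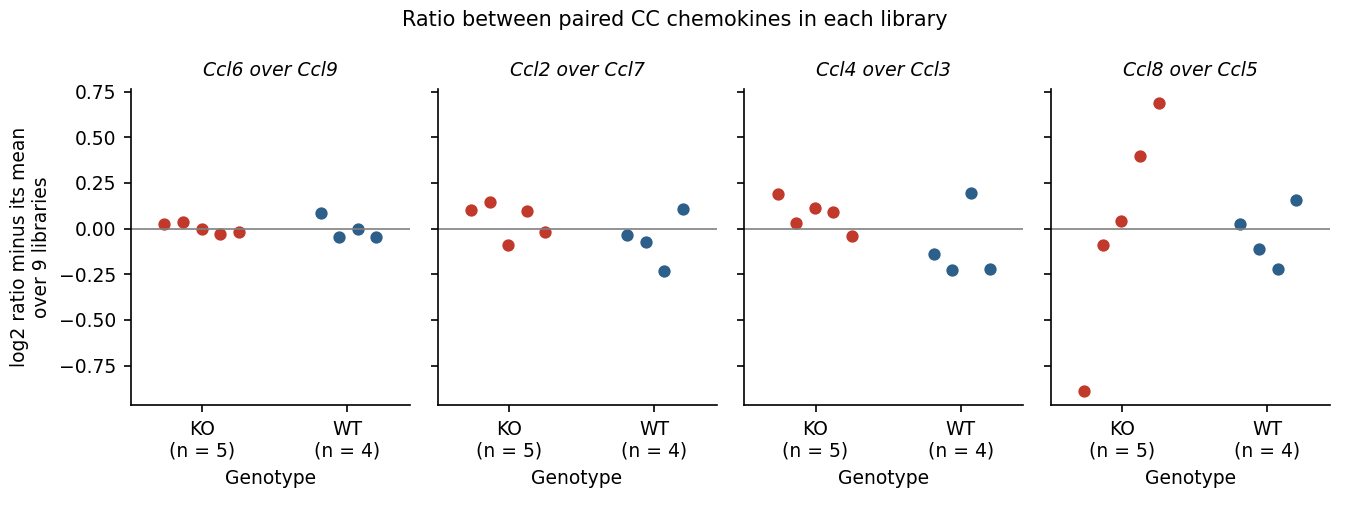
log2 ratio of 4 pairs of CC chemokine genes, each minus its mean over 9 libraries; points are libraries, KO (n = 5) left of WT (n = 4), so points near 0 mean a fixed ratio. Ccl6 over Ccl9 varies least (3.39 to 3.72 per kb) and Ccl8 over Ccl5 most (2.16 to 6.44 per kb), with both its lowest and its highest value in KO.

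Ccl24, the eosinophil attractant eotaxin-2, signals through Ccr3 and is produced by alternatively activated macrophages. It had 2670, 2855, 2690, 3534 and 2850 normalized counts in KO replicates 1 to 5, against 3151, 2049, 1542 and 2465 in WT replicates 1 to 4. WT replicate 1 lay inside the KO range and the other 3 WT libraries below it. The means were 2920 ± 354 in KO (SD, n = 5) and 2302 ± 680 in WT (SD, n = 4); the log2 difference was 0.38 (SE 0.18, 95% interval -0.01 to 0.78; adjusted p by limma = 0.553). Within the 6 deeper libraries it was 0.20, and without WT replicate 3 it was 0.21. WT replicate 3, which had the highest Ccl5 and Ccl8, had the lowest Ccl24. The nearest gene was Tshz1, a zinc finger protein (SD of the log2 ratio 0.14), and the nearest member was Ccl6, at place 793. The 10 markers of resident adipose macrophages, such as Lyve1 and Cd163, were all measured and had a median log2 difference of 0.50, with 9 above 0 and 0 past the test; their summed level was 96385 to 131697 in KO and 85799 to 132946 in WT, and their part in the values of Ccl24 was not tested.

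**Figure D5:**
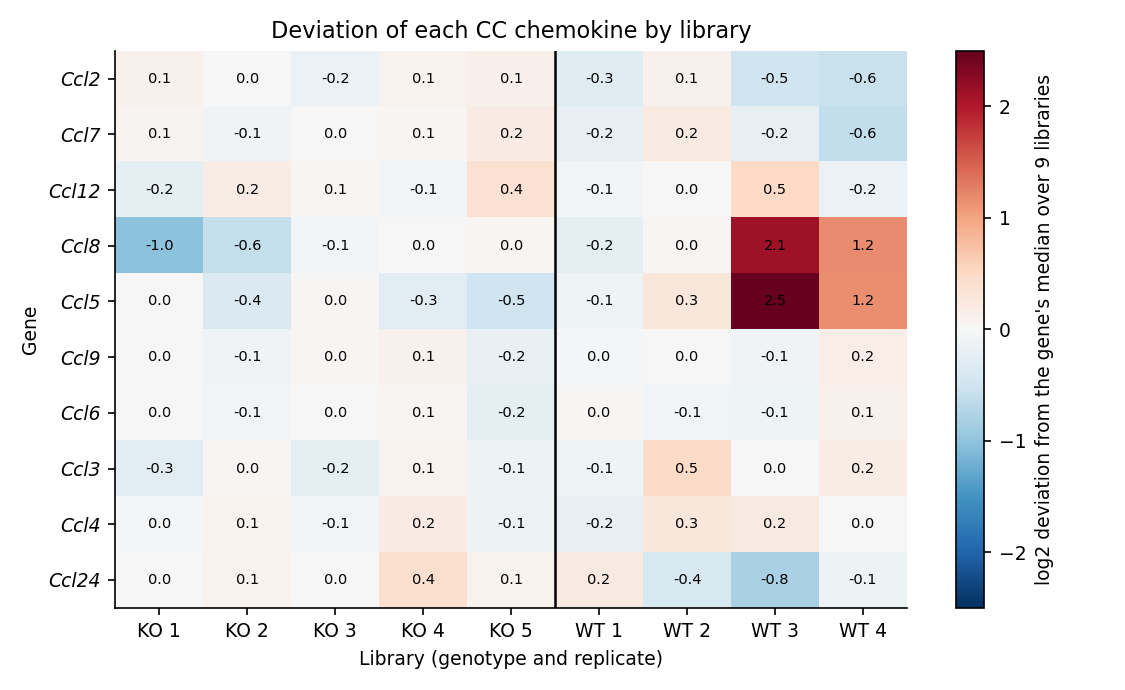
log2 deviation of (normalized count + 1) of each CC chemokine gene from its median over 9 libraries; columns are libraries with KO left of WT, rows follow the gene order on chromosome 11 and end with Ccl24 of chromosome 5. The strongest cells are Ccl8 and Ccl5 in WT replicates 3 and 4, while Ccl9 and Ccl6 hardly change color.

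Of 14 other CC chemokine genes 11 were in the table and 0 passed the test; 8 lay above 0 and 3 below. They were far less abundant, summing to 8784 to 13697 normalized counts in KO and 9808 to 13611 in WT. Ccl11, the eotaxin of the cluster with Ccl2, Ccl7, Ccl12 and Ccl8, had 5426, 4186, 5008, 4182 and 5061 in KO, against 5639, 8102, 7421 and 5743 in WT. Its ranges did not overlap, and its log2 difference was -0.49 (SE 0.13; adjusted p by limma = 0.178). Ccl27a averaged 217 ± 49.2 in KO and 86.3 ± 61.2 in WT, and Ccl21a, a ligand of Ccr7 in lymphatic vessels, 659 ± 303 in KO and 363 ± 339 in WT (SD over 5 and 4 libraries; adjusted p by limma = 0.470 and 0.539). Ccl21b, at 141 ± 97.6 in KO and 63.8 ± 57.0 in WT (adjusted p by limma = 0.606), is a near-identical copy of Ccl21a, as Ccl27a is of Ccl27b, so their single values are uncertain.

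Of 12 CC chemokine receptor genes 10 were measured and 0 passed; 4 lay above 0 and 6 below, with a median log2 difference of -0.30. Ccr2, which binds Ccl2, Ccl7 and Ccl12, had 75363, 56252, 58872, 49719 and 54547 normalized counts in KO, against 51617, 58146, 52812 and 49937 in WT, and the groups overlapped (log2 difference 0.14, adjusted p by limma = 0.724). Ccrl2, which binds chemerin and does not signal, averaged 36754 ± 3604 in KO and 44270 ± 4090 in WT (SD over 5 and 4 libraries; adjusted p by limma = 0.284), with ranges that did not overlap.

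Among receptors added for their role, Ccr1, the receptor of Ccl6 and Ccl9, had 5885 to 11024.5 normalized counts in KO and 6008 to 7831 in WT. Ccr3, the receptor of Ccl24, had 388 to 1282 in KO and 654 to 1633 in WT. Of 13 markers of mast cells, eosinophils and basophils, cells that carry Ccr3, 11 were measured, 4 were lower in KO past the test (0.127% of all genes were), and their sum was 1881 to 3936 in KO and 6429 to 11393 in WT; their part in the values of Ccr3 was not tested. Ccr8, through which mouse Ccl8 acts, was at the floor of 1 in 4 of 5 KO libraries and in 2 of 4 WT libraries, and at most 57.7 in KO and 35.1 in WT. Ccr6, the receptor of Ccl20, was at 1 to 11.9 in KO and 1.27 to 67.3 in WT (adjusted p by limma = 0.631). Of the receptors named, Ccr2 was thus the most abundant by counts, and Ccr6 and Ccr8 were near the floor.

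Of the 4 atypical receptors, which bind chemokines without G protein signalling, Ackr1 rose and the other 3 did not pass. Ackr1, a chemokine-binding protein of venular endothelium and red cells, had 1290, 720, 681, 776 and 1525 normalized counts in KO, against 182, 383, 177 and 191 in WT (log2 difference 2.09, SE 0.37; adjusted p by limma = 0.0223); 0.181% of all genes were called higher in KO. The 11 endothelial markers, Ackr1 among them, were all measured and all above 0, with a median log2 difference of 1.33, and summed to 5639 to 11251 in KO and 2510 to 4706 in WT. Their part in the value of Ackr1 was not tested. The call was lost whichever library was left out (adjusted p by limma between 0.0582 and 0.169), and also with limma-voom (0.147), in the 6 deeper libraries (0.459), without WT replicates 3 and 4 (0.324) and with the replicate block (0.475). Ackr3 averaged 3114 ± 837 in KO and 2424 ± 570 in WT (SD over 5 and 4 libraries; adjusted p by limma = 0.643). Ackr4 and Ackr2 had adjusted p by limma of 0.927 and 0.936.

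Of 11 genes of chemokine processing and binding, Mmp2 fell and the other 10 did not pass. Mmp2, a gelatinase known to trim the Ccl7 protein, had 3037, 2817, 2674, 2898 and 3200 normalized counts in KO, against 5124, 4657, 6099 and 3656 in WT (log2 difference -0.72, SE 0.14; adjusted p by limma = 0.0480); 0.127% of all genes were called lower in KO. The groups did not overlap, yet the call was kept in 1 of 9 fits that left out a library, the one without WT replicate 4 (adjusted p by limma between 0.0361 and 0.227), and was lost in 15 of all 21 alternatives, among them a pseudocount of 0.1 (0.0506), limma-voom (0.0590), quantile normalization (0.0685), a depth-class term (0.104), only the 6 deeper libraries (0.123) and the replicate block (0.471). Mmp9, the other gelatinase, averaged 433 ± 117 in KO and 112 ± 14.5 in WT (adjusted p by limma = 0.0892), and Dpp4, a peptidase that clips the ends of chemokines, 2421 ± 1064 in KO and 1290 ± 250 in WT (adjusted p by limma = 0.364; SD over 5 and 4 libraries for both). Mmp8 had adjusted p by limma = 0.645 and the hyaluronan receptor gene Cd44 0.603. Mmp8 and Mmp9 are also among 10 neutrophil markers, of which 8 were measured, 7 lay above 0 and 0 passed. The neutrophil markers had a median log2 difference of 0.71 and summed to 2745 to 4719 in KO and 2263 to 3271 in WT. Their part in the values of Mmp8 and Mmp9 was not tested.

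Of 17 genes of signalling below the receptors 0 passed, with 7 above 0, 10 below and a median log2 difference of -0.02. The lowest p belonged to Rgs1, which ends G protein signalling, at 72045 to 82950.5 normalized counts in KO and 90387 to 112291 in WT (log2 difference -0.38, SE 0.08; adjusted p by limma = 0.0660). The phospholipase gene Plcb2 averaged 592 ± 158 in KO and 290 ± 146 in WT, and Arrb2, which encodes an arrestin, 2595 ± 238 in KO and 2147 ± 225 in WT (SD over 5 and 4 libraries; adjusted p by limma = 0.331 and 0.583). Grk6, a receptor kinase, had adjusted p by limma = 0.676.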

How the data were processed

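RNA of sorted fat macrophages was sequenced in 5 KO and 4 WT libraries. Per the labels' protocols, poly(A) RNA was captured with oligo-dT and the libraries kept the strand (dUTP). CASAVA 1.8.2, HISAT, Partek, DESeq2 and mm10 are named in the submitters' processing notes, without their roles. The sources used here do not give the annotation, the strand setting, the treatment of shared reads or the gene filter. What the authors deposited is a signal for each gene: reads over 1 factor per library, values under 1 set to 1; the share of values above 1 that fell within 0.1 of a whole number of reads was 99.4% to 99.7%. Owing to the floor, no count model was used as the main test.

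Groups were compared with limma 3.58.1 in R 4.3.3 on log2(value + 1), with a mean-variance trend, genotype as the only term, and all 9 libraries; p-values were adjusted by Benjamini-Hochberg over 14905 genes, the threshold was 0.05, and folds refer to the log2(value + 1) scale. Exact permutation tests used SciPy 1.17.1 under Python 3.11.15; figures used matplotlib 3.10.9. The code was tested on simulated data. Members and lists were chosen with earlier results of these data known. Named genes are all members, listed pathway genes past the threshold plus the 4 of each list with the smallest p, and the gene and member most like each member; others are marked where they appear, and some genes the rule takes are not reported here. Symbols matched GENCODE M21 for 14396 genes. Alternatives were pseudocounts of 0.1 and 10, 2 filters, median-ratio and quantile scaling, array weights, limma-voom on worked-out reads, replicate block, a depth-class term, only the 6 deeper libraries, and leaving out each library. The fit without WT replicates 3 and 4 and the shallower libraries alone were added after seeing the data.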

Additional observations from a re-analysis of the deposited data

Results flagged for a closer look

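In KO the highest Ccl24 library, replicate 4 with 3534 normalized counts, stood apart from the other 4, which lay between 2670 and 2855; its gap to the next was 0.786 of the group's range. In WT the highest Ackr1 library, replicate 2 with 383, stood apart from the other 3, at 177 to 191, with a gap of 0.933 of the range. Of 50 groups of libraries examined this way 2 stood out, and chance flags about 1 in 20.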

How the results depend on the processing

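The count of members past the adjusted threshold was 0 in all alternatives run, with 0 to 5 at an unadjusted p under 0.05 (limma, and 3 of 10 with limma-voom). The count over all genes, 46, moved with each library. Leaving out KO replicates 1 to 5 in turn gave 8, 14, 5, 8 and 9 genes, and leaving out WT replicates 1 to 4 gave 38, 10, 18 and 19. It was 2 without WT replicates 3 and 4, 0 with only the 6 deeper libraries (1039 with an unadjusted p under 0.05) and 0 with the replicate block (1104). The block drops KO replicate 5, and Nucb2 did not pass in these 3 fits. Taken over all genes, same-numbered libraries did not deviate together (correlations -0.0214 to 0.0172). Whether same-numbered libraries share a batch was not tested.

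Of 210 member differences under alternatives 189 kept their direction and 21 took the opposite sign, in Ccl4, Ccl6, Ccl7, Ccl9 and Ccl12, the cause of which was not tested. Leaving out 1 library gave -0.16 to 0.00553 for Ccl4, -0.0658 to 0.0117 for Ccl6, -0.0714 to 0.0145 for Ccl9, -0.0804 to 0.14 for Ccl12, -1.53 to -0.66 for Ccl5, -1.44 to -0.66 for Ccl8, 0.27 to 0.49 for Ccl2, -0.32 to -0.13 for Ccl3, 0.11 to 0.39 for Ccl7 and 0.21 to 0.55 for Ccl24. With only the deeper libraries Ccl4 was at 0.00743, Ccl6 at 0.0204, Ccl7 at -0.00101, Ccl9 at 0.0327 and Ccl12 at 0.0210. With the replicate block Ccl6 was at 0.0117 and Ccl9 at 0.000951. Quantile normalization gave 0.0169 for Ccl6 and 0.0225 for Ccl12. Ccl12 was at 0.000543 with median-ratio scaling, 0.0862 with depth class as a term and 0.10 without WT replicates 3 and 4. Of the 10 places in the order of levels, 6 to 10 kept their member when 1 library was left out and 10 with the longest transcript as length.

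Of 881 differences of the other named genes under alternatives 21 took the opposite sign. With only the deeper libraries Ccl21a was at -0.30, Ccl21b at -0.18, Ackr3 at -0.0329, Ackr2 at 0.33, Ccr1 at -0.00289, Larp4b at 0.0675, Lats2 at -0.0930 and Irf1 at 0.00348. Without WT replicates 3 and 4 Ccl21a was at -0.10, Ackr2 at 0.62, Larp4b at 0.0289, Lats2 at -0.0562 and Irf1 at 0.0244. Ackr2 was at 0.15 with depth class as a term, and Sar1a at -0.0195 with the block. Leaving out 1 library gave -0.44 to 0.13 for Ackr4, -0.84 to 0.58 for Ackr2, -1.47 to 0.41 for Ccr8 and -0.0195 to 0.14 for Sar1a. The tools edgeR and DESeq2 were not run, as the floor hides counts of 0, and in the 6 deeper libraries also counts of 1. The 9 libraries limit the precision of the members' differences, and 5 against 4 allows no exact p under 0.0159.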
